A study of Mus musculus with 6 samples.

Results

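The mitochondrial genome of the mouse carries 37 genes, and small RNA reads over all of them were counted in 6 libraries of adult hippocampus. The genes were taken as every row on chromosome MT of the count tables: 22 tRNA genes, 2 rRNA genes and 13 protein-coding genes, out of 91762 rows in all once overlapping rows of 1 gene with identical counts were counted once. No row on chromosome MT was removed by that step, and all 37 matched a gene of GENCODE M21 (GRCm38) in start, end and strand.

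The libraries came from male C57BL/6 mice aged 3 months that carried Dicer1 flox/flox and had been given tamoxifen 3 weeks before. In 3 libraries (WT) the second genotype was wild-type. In the other 3 (Dicer1-ifKO) the mice also carried CaMKIIa-creERT2, a recombinase made active by tamoxifen and driven by the promoter of a kinase of excitatory forebrain neurons, so deletion was directed to those neurons, while glia, vessels and other neurons of the tissue keep an intact gene. Dicer1 encodes the enzyme that cuts miRNA precursors. Each library was a pool of hippocampal RNA from 3 mice, which makes 9 mice per genotype where the series' design text states 12. Every p-value here rests on the spread between these pools, and a lower level in fewer cells cannot be told apart from less RNA per cell.

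Mitochondrial DNA is copied into long RNAs from both of its strands. Most of its mRNAs and both rRNAs are flanked by tRNAs, and the enzymes RNase P and ELAC2 free the tRNAs by cutting at their 5′ and 3′ ends, which releases the RNAs between them. The tRNAs and rRNAs serve the mitochondrial ribosome, which makes the membrane subunits of the respiratory chain. Dicer1 is not among the enzymes of this pathway. The values below describe pieces of these RNAs short enough for a small RNA library. They are not levels of whole tRNAs, rRNAs or mRNAs.

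The 5 most abundant tRNA rows and the 2 least abundant are shown because the tRNA fragments spanned the widest range of levels. The sequences are the genes as GENCODE M21 gives them, 5′ to 3′ in DNA letters, without the CCA that is added later, and the capitals mark the anticodon:
mt-Tv: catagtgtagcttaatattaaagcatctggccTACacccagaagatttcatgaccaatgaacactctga
mt-Ts2: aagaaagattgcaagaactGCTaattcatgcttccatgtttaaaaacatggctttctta
mt-Th: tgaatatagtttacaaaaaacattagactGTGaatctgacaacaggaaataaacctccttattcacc
mt-Tg: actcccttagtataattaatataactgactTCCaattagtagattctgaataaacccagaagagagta
mt-Tm: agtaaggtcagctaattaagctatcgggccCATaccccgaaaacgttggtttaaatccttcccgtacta
mt-Tr: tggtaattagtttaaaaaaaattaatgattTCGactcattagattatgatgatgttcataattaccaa
mt-Td: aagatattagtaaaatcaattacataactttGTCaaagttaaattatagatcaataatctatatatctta

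They are the tRNAs for valine (mt-Tv, chrMT:1025-1093), serine with the GCT anticodon (mt-Ts2, chrMT:11613-11671), histidine (mt-Th, chrMT:11546-11612), glycine (mt-Tg, chrMT:9391-9458), methionine (mt-Tm, chrMT:3845-3913), arginine (mt-Tr, chrMT:9808-9875) and aspartate (mt-Td, chrMT:6942-7011), all on the plus strand of GRCm38. The tRNA genes are 59 to 75 bases long, and mt-Ts2, the shortest, is the serine tRNA that lacks the D arm. The 2 rows with the fewest counts were also AT-rich, with 22.1% GC in mt-Tr and 17.1% in mt-Td, in a class that ran from 17.1% to 44.9%. Across the 22 tRNA genes, which share their libraries and are not independent, the log10 density had a Pearson correlation of 0.55 and a Spearman correlation of 0.37 with GC content.

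Values of single libraries are given in the order of replicates 1, 2 and 3. The WT libraries had 391143, 221347 and 233627 reads counted on mitochondrial rows, and the Dicer1-ifKO libraries 227811, 271005 and 224398. The summed counts of all rows were 39391771 to 54629089 per library. Overlapping rows can hold identical counts, so a read may count in more than 1 row, and this sum cannot be taken as read depth. WT replicate 1 stood apart, with 0.86% of its summed counts on the mitochondrial genome against 0.42% to 0.58% in the other 5 libraries. The 5 neuronal miRNA markers summed to 6185 to 7381 CPM in WT and 5877 to 6753 CPM in Dicer1-ifKO (CPM is the count of a row scaled to the summed counts of its library with TMM factors). Of these, miR-124-3p, miR-9-5p and miR-181a-5p had means of 118, 337 and 5302 CPM in WT and 117, 343 and 5162 CPM in Dicer1-ifKO, while miR-128-3p and miR-132-3p had 809.6 and 195 CPM in WT and 603 and 151 CPM in Dicer1-ifKO. The liver marker miR-122-5p held 0 or 1 count in each library. WT replicate 1 had the lowest summed level of the 4 leukocyte and microglia markers, 147 CPM. The part of other cell types in its mitochondrial level was not tested. Between the genotypes, the summed markers did not overlap for leukocytes and microglia (147 to 181 CPM in WT, 187 to 205 in Dicer1-ifKO) or for choroid plexus and epithelium (320 to 345 and 219 to 237 CPM). Each sum lay mostly in 1 miRNA: miR-150-5p (means 147 CPM in WT and 173 in Dicer1-ifKO) and miR-204-5p (331 and 224 CPM). Of all tested features, 3.73% were higher and 9.27% lower without overlap. The markers are miRNAs, whose precursors Dicer1 cuts, so these sums do not by themselves show cell content. Dicer1 itself held 45, 33 and 47 counts in WT and 37, 32 and 35 in Dicer1-ifKO, reads over the whole gene that do not check the deletion.

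Most of the mitochondrial counts lay in a pair of genes that touch each other. mt-Rnr2, the RNA of the large mitochondrial ribosomal subunit (chrMT:1094-2675), held 42.4% to 54.6% of them in single libraries. mt-Tv, the valine tRNA just before it, held 18.2% to 33.1%. Its level was 2644, 870.5 and 1111 CPM in WT, against 999, 1058 and 1058 CPM in Dicer1-ifKO. Apart from WT replicate 1, the libraries of both genotypes lay in 1 narrow band for mt-Tv, and the highest was 1.28 times the lowest.

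Compared per length, the tRNA genes held far more counts than the mRNA genes. Per row, without division by length, the median levels were 25.9 CPM for tRNA and 12.9 CPM for mRNA genes. The counts do not give where reads lie within a row, so density here does not mean even coverage. The median density was 376 CPM per kb over the 22 tRNA genes and 11.8 over the 13 mRNA genes. The ratio of these medians was 31.8 ± 6.68 (SD over the 6 libraries), and it lay between 20.1 and 38.5 in single libraries. The classes overlapped all the same: tRNA genes ran from 3.93 (mt-Tr) to 18699 CPM per kb (mt-Tv), and mRNA genes from 4.60 (mt-Co3) to 229 (mt-Nd3). The rRNA genes differed 11.2-fold in density, with 1627 CPM per kb for mt-Rnr2 and 145 for mt-Rnr1. By annotated strand, the median densities were similar, 371 CPM per kb for the 14 tRNA genes on the plus strand and 376 for the 8 on the minus strand. Counting looked blind to strand, so sense and antisense reads are not separated in these rows. The medians therefore do not compare the RNA made from each strand.

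**Figure D1:**
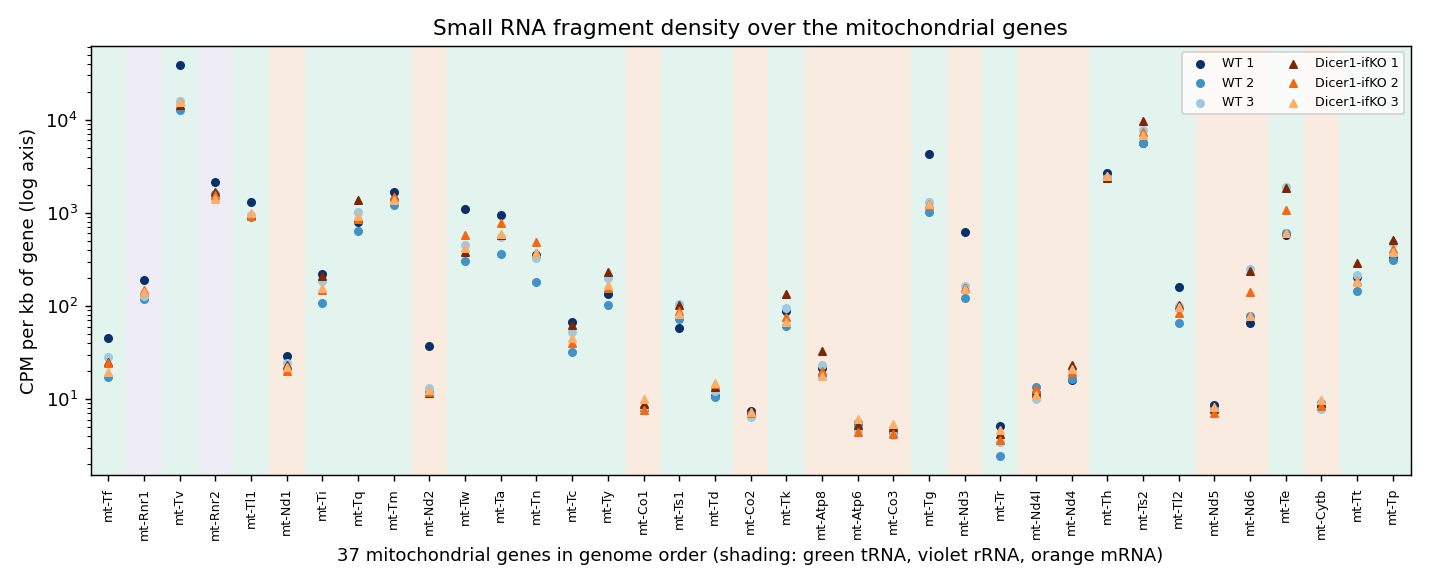
Density of small RNA fragments (CPM per kb of gene, log axis) over the 37 mitochondrial genes in genome order, with 1 point for each of the 6 libraries (circles WT, triangles Dicer1-ifKO). mt-Tv tops the plot, most orange-shaded mRNA genes lie near the bottom, and WT replicate 1 lies above the other points at mt-Tv, mt-Nd2, mt-Tw, mt-Tg and mt-Nd3.

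Among tRNA genes, mt-Ts2 followed mt-Tv. It stood at 334, 330.2 and 455 CPM in WT and at 575, 441 and 409 CPM in Dicer1-ifKO, and the genotypes overlapped. mt-Th, its neighbour upstream, was the steadiest tRNA row, at 181, 158 and 159.5 CPM in WT and 157, 169 and 168 CPM in Dicer1-ifKO, with the highest library 1.15 times the lowest. Both genes lie side by side in the cluster of tRNAs between mt-Nd4 and mt-Nd5, yet the ratio of mt-Ts2 to mt-Th counts ranged from 1.84 to 3.66 over the libraries. mt-Tm, which serves both to start and to extend proteins in mitochondria, stood at 116, 84.6 and 95.8 CPM in WT and 105, 101 and 93.8 CPM in Dicer1-ifKO, again with overlap. mt-Tg, the glycine tRNA, stood at 289.5, 69.8 and 89.2 CPM in WT and 83.9, 83.4 and 84.5 CPM in Dicer1-ifKO. Its 3 Dicer1-ifKO libraries nearly coincided, and WT replicate 1 was 3.25 times the next highest library.

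At the other end were tRNA rows with few reads. mt-Tr held 17, 8 and 11 counts in WT and 12, 13 and 15 in Dicer1-ifKO. mt-Td held 37, 35 and 40 counts in WT and 39, 54 and 49 in Dicer1-ifKO. These counts are too small to show modest differences. The remaining 15 tRNA genes had mean levels between those of mt-Td and mt-Tm.

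The rRNA rows were less variable between libraries than most tRNA rows. mt-Rnr1, the RNA of the small mitochondrial ribosomal subunit (chrMT:70-1024), stood at 182, 115 and 121 CPM in WT and 134, 142 and 136 CPM in Dicer1-ifKO. mt-Rnr2 stood at 3387, 2526 and 2222 CPM in WT and 2623, 2439 and 2248 CPM in Dicer1-ifKO. WT replicate 1 was highest for both, and the genotypes overlapped. mt-Rnr2 held 16.5 to 22.0 times the counts of mt-Rnr1. Since mt-Tv moved 3.04-fold over the libraries and mt-Rnr2 only 1.52-fold, the ratio of mt-Rnr2 to mt-Tv counts ranged from 1.28 in WT replicate 1 to 2.90 in WT replicate 2.

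The 10 mRNA rows other than mt-Nd2, mt-Nd3 and mt-Nd6 (a set chosen after the values were seen) were sparse and steady. Their density was 4.60 to 23.3 CPM per kb, and the highest library was 1.17 to 1.87 times the lowest. mt-Co3, a subunit of cytochrome c oxidase and the least dense, held 162, 174 and 150 counts in WT and 164, 174 and 201 in Dicer1-ifKO. mt-Nd1, a subunit of complex I that begins right after a leucine tRNA, stood at 27.7, 19.97 and 23.2 CPM in WT and 22.3, 19.4 and 21.0 CPM in Dicer1-ifKO. mt-Nd4, a further subunit of complex I, stood at 22.2, 22.8 and 29.0 CPM in WT and 32.1, 27.2 and 28.9 CPM in Dicer1-ifKO. In both of these rows the genotypes overlapped.

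The rows mt-Nd3 and mt-Nd6 were the densest of the mRNA genes and had the largest ratios of the highest to the lowest library, 5.13 and 3.75, followed by mt-Nd2 with 3.21. Both encode subunits of complex I, and both begin at the base that follows a tRNA on the same strand. That position is shared by mt-Nd1, mt-Nd2 and mt-Nd5, and the ratio was only 1.43 for mt-Nd1 and 1.22 for mt-Nd5. mt-Nd3 stood at 218, 42.4 and 57.6 CPM in WT and 54.2, 54.0 and 52.9 CPM in Dicer1-ifKO, where WT replicate 1 was 3.77 times the next highest library. mt-Nd6, the 1 mRNA gene on the minus strand, stood at 34.3, 40.5 and 128 CPM in WT and 124, 72.5 and 40.05 CPM in Dicer1-ifKO. Its high libraries were thus WT replicate 3 and Dicer1-ifKO replicate 1, a different pattern from that of mt-Nd3.

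Each of these rows followed the tRNA before it. mt-Te, the glutamate tRNA ahead of mt-Nd6, held 1941, 2001 and 6116 counts in WT and 5296, 3973 and 1992 in Dicer1-ifKO, while mt-Nd6 held 1679, 1939 and 5971 and then 5132, 3861 and 1882. The ratio of mt-Nd6 to mt-Te stayed between 0.87 and 0.98, although each level moved over 3-fold. mt-Tg held 14191, 3344 and 4145 counts in WT and 3483, 4443 and 3969 in Dicer1-ifKO, while mt-Nd3 held 10665, 2030 and 2680 and then 2253, 2875 and 2487. Here the ratio was 0.61 to 0.75, against a 4.15-fold range of mt-Tg and a 5.13-fold range of mt-Nd3. The counts therefore do not separate fragments of these mRNAs from fragments that belong to the tRNA or cross the boundary, and the values of mt-Nd3 and mt-Nd6 are uncertain for that reason.

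The boundaries are printed to show where such reads would lie, with the last 20 bases of the tRNA gene in lower case and the first 15 of the next gene in capitals, 5′ to 3′ on the coding strand. The mt-Te to mt-Nd6 boundary lies at chrMT:14056-14090 on the minus strand, and the others on the plus strand at chrMT:9439-9473 (mt-Tg to mt-Nd3), chrMT:1074-1108 (mt-Tv to mt-Rnr2) and chrMT:2731-2765 (mt-Tl1 to mt-Nd1):
mt-Te to mt-Nd6: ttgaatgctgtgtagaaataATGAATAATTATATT
mt-Tg to mt-Nd3: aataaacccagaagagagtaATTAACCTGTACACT
mt-Tv to mt-Rnr2: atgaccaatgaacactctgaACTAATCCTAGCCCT
mt-Tl1 to mt-Nd1: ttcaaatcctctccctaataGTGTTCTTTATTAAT

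A joint movement was not the rule for neighbours. Of 36 neighbouring pairs around the genome, 12 had a count ratio that moved less over the libraries than the level of either gene. Besides the pairs above, these included mt-Tl1 and mt-Nd1 (ratio 0.28 to 0.33), mt-Rnr2 and mt-Tl1 (0.027 to 0.033), and mt-Tk and mt-Atp8 (0.76 to 0.95), where mt-Atp8, a subunit of ATP synthase, lies 1 base beyond the lysine tRNA. mt-Tw, the tryptophan tRNA, overlaps the end of mt-Nd2 by 2 bases, and the ratio of mt-Tw to mt-Nd2 was 1.63 to 3.09, against ranges of 3.69-fold and 3.21-fold in their levels. Of the 11 pairs that abut on 1 strand, the steady ones were mt-Te with mt-Nd6, mt-Tg with mt-Nd3, mt-Tl1 with mt-Nd1, and mt-Rnr2 with mt-Tl1. The abutting pair mt-Tv and mt-Rnr2 was not among the 12, nor were mt-Tm and mt-Nd2 (0.11 to 0.33) or mt-Tl2 and mt-Nd5. Pairs on opposite strands were among the 12 as well: mt-Ti with mt-Tq, mt-Tw with mt-Ta, and mt-Tt with mt-Tp. These pairs and mt-Te were chosen after their values were seen.

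**Figure D2:**
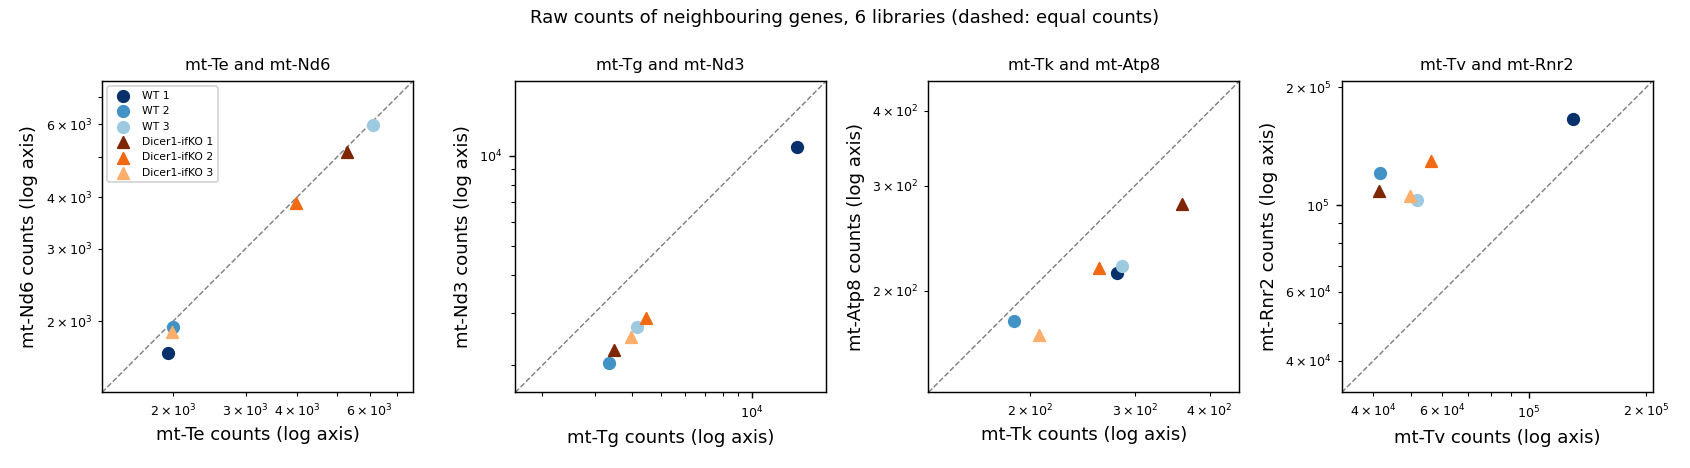
Raw counts of a tRNA gene (x axis) and of the gene after it (y axis) in the 6 libraries, both on log axes, with a dashed line at equal counts. mt-Te and mt-Nd6 lie close to the line in every library, mt-Tg with mt-Nd3 and mt-Tk with mt-Atp8 lie below it at ratios of 0.61 to 0.75 and 0.76 to 0.95, and mt-Tv and mt-Rnr2 do not keep 1 ratio.

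Near-identical copies of mitochondrial genes in the nucleus also bear on the mRNA rows. Of the 37 genes, 11 matched a nuclear GENCODE transcript at 95% identity or more over at least 30 bases, and 1 of the 11 was a tRNA gene (mt-Tt). Only transcripts were searched, not the genome, so nuclear copies outside annotated transcripts would be missed. The tRNA and rRNA rows, mt-Tg, mt-Tr and mt-Td among them, are therefore not shown to be free of such copies. On chromosome 1, pseudogenes copy mt-Co2, mt-Atp6 and mt-Co3 with no mismatch over more than 99% of the gene, and mt-Nd4 over 63.6% of it, and a copy of mt-Nd3 has 1 mismatch. The count tables hold a row for 1 such copy, Gm10222 (chr1:24612407-24612700 in GENCODE, minus strand), which matches 294 bases of mt-Nd4l with no mismatch. Gm10222 held 127, 180 and 137 counts in WT and 152, 211 and 192 in Dicer1-ifKO. mt-Nd4l held 171, 193 and 139 in WT and 142, 204 and 155 in Dicer1-ifKO. The copy thus held about as many counts as the mitochondrial gene, so mt-Nd4l is uncertain between them. For copies without a row, where their reads were placed was not tested. Less exact or shorter matches were those of mt-Co1 (97.6% identity over 1545 bases), mt-Nd2 (96.7% over 510) and mt-Nd5 (95.2% over 954). mt-Atp8 matched with no mismatch over 43 bases, and mt-Tt at 97.2% over 36. The levels and densities of these rows and of mt-Co2, mt-Atp6, mt-Co3, mt-Nd3 and mt-Nd4 therefore carry a similar limit.

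The largest differences were between libraries of 1 genotype. WT replicate 1 was the highest library for 19 of the 37 genes, among them both rRNA genes, 12 tRNA genes and 5 mRNA genes. Its level was 4.17 times the mean of the other 5 libraries for mt-Nd3, 3.52 times for mt-Tg, 3.03 times for mt-Nd2, 2.62 times for mt-Tw and 2.59 times for mt-Tv. It was not raised throughout: it was the lowest library for mt-Nd6, mt-Te, mt-Ts1 and mt-Nd4. For mt-Te and mt-Nd6 it stood at 0.47 and 0.42 times the mean of the others, and mt-Co1, mt-Co2 and mt-Cytb stood at 0.93, 1.07 and 0.95 times.

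**Figure D3:**
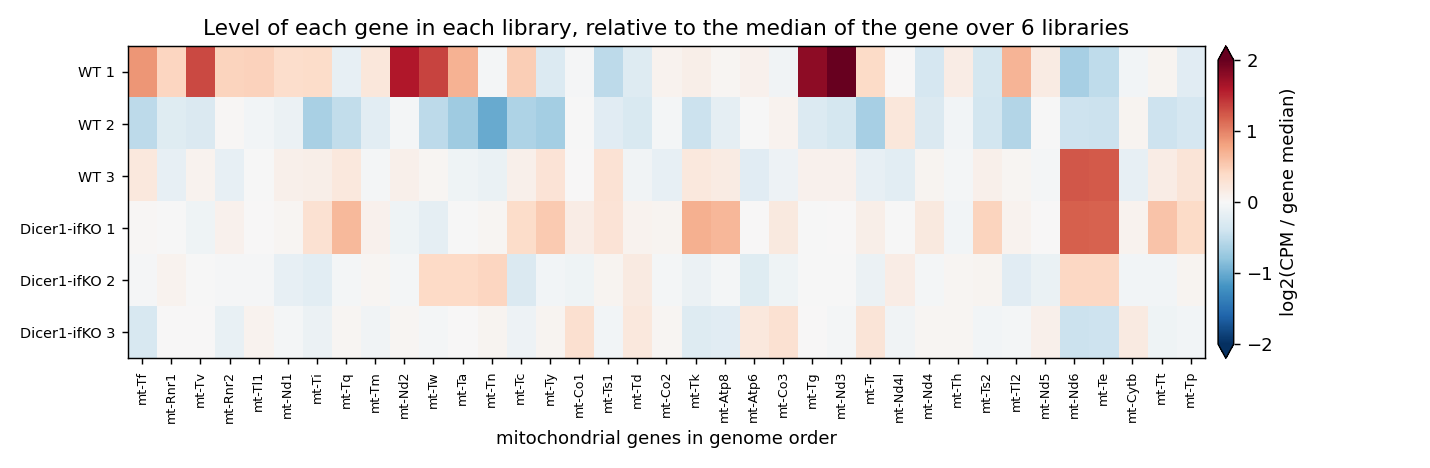
Level of each mitochondrial gene in each library as log2 of CPM over the median of the gene (color scale cut at -2 and 2), with genes in genome order. The dark red cells of WT replicate 1 mark mt-Tv, mt-Nd2, mt-Tw, mt-Tg and mt-Nd3, while mt-Nd6 and mt-Te are raised together in WT replicate 3 and Dicer1-ifKO replicate 1.

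By class, the genotypes did not differ beyond this spread. Mitochondrial tRNA rows took 0.43%, 0.16% and 0.23% of the summed counts in the WT libraries and 0.26%, 0.22% and 0.22% in those of Dicer1-ifKO, so the means were 0.28% ± 0.14 and 0.23% ± 0.019 (n = 3 each, ± SD; two-sided exact permutation p = 0.8, adjusted p = 1 over 3 classes). The rRNA rows took 0.28% ± 0.088 and 0.26% ± 0.025 (exact permutation p = 1), and the mRNA rows 0.030% ± 0.013 and 0.026% ± 0.0054 (exact permutation p = 0.7). With 3 libraries against 3, p cannot go below 0.1. Without WT replicate 1 the mean of the WT libraries lay below that of Dicer1-ifKO in all 3 classes, with differences of 0.037, 0.029 and 0.0024 percentage points for tRNA, rRNA and mRNA rows (exact permutation p = 0.4, 0.2 and 0.7).

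Within the mitochondrial counts, the shares of the 3 Dicer1-ifKO libraries lay in a narrower range than those of the WT libraries, and the means were close. The tRNA rows made up 50.3%, 38.7% and 47.3% in WT and 44.2%, 44.6% and 45.5% in Dicer1-ifKO (means 45.4% ± 6.02 and 44.7% ± 0.68, n = 3 each, ± SD; exact permutation p = 0.9). The rRNA rows made up 49.5% ± 6.67 and 50.3% ± 0.40 (exact permutation p = 1), and the mRNA rows 5.09% ± 0.94 and 4.94% ± 0.55 (exact permutation p = 0.8). Whether the spread itself differed between genotypes was not tested. Of the 2861 nuclear tRNA rows, 489 held a count in these libraries. Set against the nuclear tRNA rows, the mitochondrial tRNA rows held 1.76, 1.00 and 0.97 times their counts in WT and 0.93, 1.02 and 1.01 times in Dicer1-ifKO. How reads that align to several nuclear tRNA genes were counted is not given. These ratios therefore do not show that both genomes give similar amounts of tRNA fragments. The log2 ratio was 0.26 ± 0.48 in WT and -0.022 ± 0.073 in the Dicer1-ifKO libraries (n = 3 each, ± SD; exact permutation p = 0.6), and without WT replicate 1 the WT mean was -0.022 as well.

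**Figure D4:**
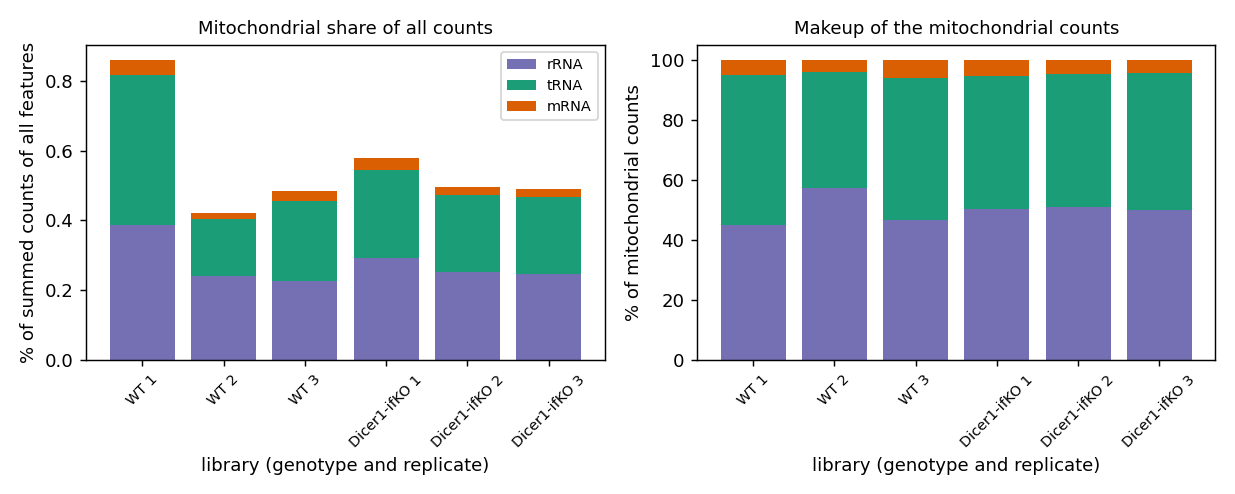
Share of the summed counts of all features held by mitochondrial rRNA, tRNA and mRNA rows (left, stacked bars, % of counts) and the same classes as a share of the mitochondrial counts (right), for each of the 6 libraries. WT replicate 1 reaches 0.86% on the left, against 0.42% to 0.58% elsewhere, and the right panel shows tRNA rows between 38.7% and 50.3%.

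Gene by gene, no mitochondrial row passed the test between the genotypes. All 37 entered the edgeR quasi-likelihood fit, and 0 were called lower and 0 higher (adjusted p from 0.68 to 0.99, Benjamini-Hochberg over 6539 features). Of all tested features 0.811% passed in either direction, 0.795% lower (52) and 0.0153% higher (1). At an unadjusted p under 0.05 there were 0 of the 37 by edgeR, against 7.81% of all features. DESeq2 gave 0 at its adjusted threshold and 2 at an unadjusted p under 0.05, mt-Nd2 (lower) and mt-Tn (higher). The median log2 change (Dicer1-ifKO against WT) was 0.06 over the 37 genes and -0.05 over all tested features. It was 0.12 for tRNA, -0.09 for rRNA and 0.06 for mRNA rows. With scaling set by the miRNA rows the medians were 0.28 over the 37 genes and 0.19 over all features, so the gap between them was 0.10 under TMM and 0.09 under that scaling. The gap moved more with single libraries, to 0.02 when WT replicate 2 was left out, 0.04 for Dicer1-ifKO replicate 1, 0.06 for WT replicate 3 and 0.16 for Dicer1-ifKO replicate 2. With no count filter it was 0.055.

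Among tRNA genes, the largest difference upward was that of mt-Tn, the asparagine tRNA on the minus strand (chrMT:5089-5159). It stood at 24.9, 12.7 and 23.2 CPM in WT and 26.1, 34.2 and 26.5 CPM in Dicer1-ifKO, so that every Dicer1-ifKO library lay above every WT library. The log2 difference was 0.51 ± 0.24 (SE, edgeR adjusted p = 0.68), and it ran from 0.28 without WT replicate 2 to 0.69 without WT replicate 1 when each library was left out in turn. mt-Td was the only other gene whose groups did not overlap, at 0.755, 0.731 and 0.860 CPM in WT and 0.939, 1.01 and 1.04 CPM in Dicer1-ifKO (log2 0.35 ± 0.20 SE, edgeR adjusted p = 0.80). These 2 genes of 37 stand beside 3.73% of all features that were higher without overlap. None of the 37 was lower without overlap, against 9.27% of all features.

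The largest differences downward were those of rows in which WT replicate 1 was high. mt-Nd3 had a log2 difference of -0.98 ± 0.72 and mt-Tg of -0.83 ± 0.62 (SE, edgeR adjusted p = 0.92 for both). Without WT replicate 1 they were 0.10 ± 0.16 and 0.07 ± 0.14. mt-Nd2 had -0.78 ± 0.48 (edgeR adjusted p = 0.87) and then -0.07 ± 0.16, and mt-Tv had -0.57 ± 0.46 and then 0.06 ± 0.13. For the most abundant tRNA besides mt-Tv, mt-Ts2, the log2 difference was 0.35 ± 0.17 (edgeR adjusted p = 0.70), and it ran from 0.19 without Dicer1-ifKO replicate 1 to 0.56 without WT replicate 3. The value with the smallest SE was that of mt-Th, -0.01 ± 0.13, and it lay above 0 under RLE scaling, library totals and miRNA scaling.

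The rRNA rows had log2 differences of -0.02 ± 0.18 (mt-Rnr1) and -0.15 ± 0.16 (mt-Rnr2), of which mt-Rnr1 lay above 0 under RLE scaling, library totals and miRNA scaling and mt-Rnr2 under miRNA scaling. Among mRNA rows mt-Nd4 was the highest, at 0.25 ± 0.16 (edgeR adjusted p = 0.84), and mt-Co3 and mt-Nd1 had 0.18 ± 0.18 and -0.18 ± 0.17, the latter above 0 under miRNA scaling. mt-Nd6, with high libraries in both genotypes, had 0.22 ± 0.74. The median of the 37 genes changed sign with the library left out: leaving out WT replicate 1 gave 0.14, leaving out WT replicate 2 gave -0.04 and leaving out Dicer1-ifKO replicate 1 gave -0.02, with 0 genes called each time.

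**Figure D5:**
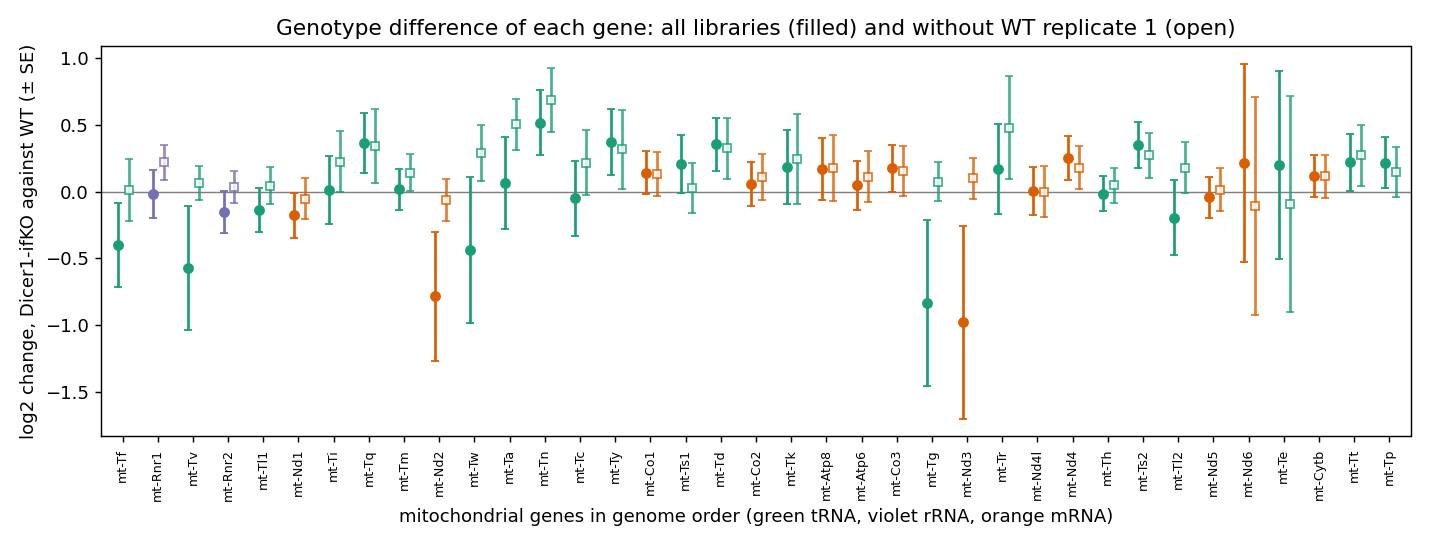
Log2 change of each mitochondrial gene, Dicer1-ifKO against WT, with its SE, from all 6 libraries (filled circles) and without WT replicate 1 (open squares), in genome order. The low filled points at mt-Tv, mt-Nd2, mt-Tg and mt-Nd3 have wide errors and lie near 0 once WT replicate 1 is left out.

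The nuclear genes that make and process mitochondrial RNA were hardly covered by these libraries. Of 36 listed genes, 35 had a row, and only Trmt10c, a subunit of the mitochondrial RNase P, had enough counts to be tested. It held 103 counts over the 6 libraries and had a log2 difference of -0.11 ± 0.33 (SE, edgeR adjusted p = 0.99).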

How the data were processed

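The authors deposited 1 table per library with 109108 features, each with raw counts (whole reads per feature, no scaling) and a normalized signal, which the deposited values show to be the raw counts times 1 constant per library. Only the raw counts were used. Per the submitters' processing notes, the tools were BWA, CASAVA 1.8.2, DESeq2 and SAMtools 0.1.18, with no role stated, on build GRCm38 (mm10). What counted the reads, how it treated several alignments and partial overlaps, and which annotation release it used is not given in the sources used here. Counting looked blind to strand: where miRNA rows lie opposite each other on both strands with 100 counts or more, 21 of 22 such pairs held counts within 1% of each other. Sense and antisense fragments of a mitochondrial gene therefore cannot be told apart.

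Overlapping rows of 1 gene with identical counts were counted once (17346 rows removed). The test was edgeR 4.0.16 in R 4.3.3 (filterByExpr with a minimum count of 10, TMM, glmQLFit robust, glmQLFTest, two-sided, Benjamini-Hochberg over 6539 tested features, threshold 0.05). It was also run on simulated data with 1 dispersion (0.03) for all rows. That run does not give the power for rows as variable as mt-Nd3 or mt-Nd6. SE was derived from the F statistic. Shares were compared by exact permutation of libraries. Sequences come from GENCODE M21 transcripts. Nuclear copies were sought among the same transcripts with BLAST 2.17.0. Counts per row limit precision (mt-Tr held 8 to 17). Replicate libraries were checked for duplicates over the mitochondrial rows by a chi-square test, which sets them against counting error only and treats reads as independent, and none agreed within it. Tried as alternatives were DESeq2 1.42.0, other scalings and count filters, all deposited rows kept, a replicate block, each library left out and other denominators. A fit of short RNA rows alone and shares without mt-Nd3 and mt-Nd6 were added after the data were seen. The members and lists were chosen with earlier results of these data known. Genes given in full were the 5 highest and 2 lowest tRNA rows, both rRNA rows, the 3 densest and the least dense mRNA rows, and the largest difference up and down among tRNA and mRNA rows.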

Additional observations from a re-analysis of the deposited data

How the results depend on the processing

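In every fit run, 0 of the mitochondrial genes were called (lowest adjusted p 0.19, with scaling set by the mitochondrial rows), while the number of features called in the whole table ranged from 1 lower and 0 higher without Dicer1-ifKO replicate 2 to 140 lower and 3 higher without WT replicate 1. At an unadjusted p under 0.05 the mitochondrial genes numbered from 0 to 10, the latter all higher and with miRNA scaling. With all libraries, 23 lower and 0 higher were called with library totals and 11 lower and 1 higher with miRNA scaling. Scaling by the miRNA rows moved the median of all features from -0.05 to 0.19 and that of the mitochondrial genes to 0.28. It takes miRNA levels as equal between the genotypes, although Dicer1 cuts miRNA precursors. The higher genes under that scaling are thus read against a shift of all rows. The replicate block likewise gave 0 calls among the mitochondrial genes and 6 lower and 0 higher over all features, against 52 and 1 without it. The labels give a shared number only: deviations of same-numbered libraries correlated at -0.18, 0.075 and -0.16 over all rows. Over the mitochondrial rows they correlated at -0.56, -0.30 and -0.78, while WT replicate 3 and Dicer1-ifKO replicate 1 correlated at 0.79. Directions of the small differences were not stable, and the cause was not tested. Against miRNA counts the rRNA difference turned to 0.15 percentage points. Per gene length the tRNA share within the mitochondrial counts differed by 0.085 points, and without mt-Nd3 and mt-Nd6 the mRNA share by 0.17 points. For the log2 ratio of mitochondrial to nuclear tRNA, the difference of Dicer1-ifKO from WT was -0.28 with summed counts. It turned to 0.22 with the median of log2 CPM over tRNA genes (exact permutation p = 0.5).

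Leaving out 1 library, differences in summed-count shares ran from -0.098 to 0.037 points (tRNA), -0.050 to 0.029 (rRNA) and -0.010 to 0.0024 (mRNA). Shares within the mitochondrial counts ran from -4.04 to 1.76, -1.56 to 4.63 and -0.59 to 0.34 in the same order, the log2 ratio of mitochondrial to nuclear tRNA from -0.43 to 2.4e-05, and the density ratio of tRNA to mRNA genes from 30.5 to 35.0. The log2 differences ran from -0.83 to 0.064 for mt-Tv, 0.19 to 0.56 for mt-Ts2, -0.036 to 0.047 for mt-Th, -1.15 to 0.073 for mt-Tg, -0.066 to 0.14 for mt-Tm, -0.035 to 0.48 for mt-Tr, 0.32 to 0.47 for mt-Td, 0.28 to 0.69 for mt-Tn, -0.12 to 0.22 for mt-Rnr1, -0.24 to 0.034 for mt-Rnr2, -1.33 to 0.10 for mt-Nd3, -0.27 to 1.12 for mt-Nd6, -0.27 to -0.053 for mt-Nd1, 0.087 to 0.30 for mt-Co3 and 0.18 to 0.43 for mt-Nd4. The median of the 37 genes ran from -0.04 to 0.14. The value of mt-Th turned to 0.032 with RLE scaling, 0.027 with library totals, 0.032 with DESeq2, 0.031 with no count filter, 0.042 with a mean of at least 50 counts and 0.22 with miRNA scaling. For mt-Rnr1 these settings gave 0.034, 0.0067, 0.034, 0.038, 0.038 and 0.20, and the replicate block 0.013. With miRNA scaling mt-Rnr2 turned to 0.054 and mt-Nd1 to 0.046. Rows with few counts, such as mt-Tr and mt-Td, limit what depth can show, and the filter of 50 counts left out both.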
